A study of Mus musculus with 6 samples.

Results

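DNA methylation and demethylation enzymes were followed as a group of 10 genes among the 24054 gene rows counted by RNA-seq in mouse embryonic stem (ES) cells. The group was chosen by name, for the roles of its products, and not by a rule on measured values, though earlier results of these data were known. It holds the maintenance methylation genes Dnmt1, Uhrf1 and Uhrf2, the de novo methylation genes Dnmt3a, Dnmt3b and Dnmt3l, the oxidation genes Tet1, Tet2 and Tet3, and the glycosylase gene Tdg. The study examined Morc3, a nuclear ATPase of the MORC family, as a factor for silencing of endogenous retroviruses (ERVs). 3 libraries came from ES cells with the genotype Morc3 knock out (ko; lines KO27-1, KO27-2 and KO27-3, here ko clones 1, 2 and 3), each of them 1 clone that was derived from the wild-type line by Cas9 cutting. 3 libraries came from wild type ES cells of the line WT26, named p42, p43 and p56 after their titles. The labels do not explain the letter p. All 6 were grown without feeder cells on gelatin in medium with serum and LIF, and the labels give no age, sex or strain. Because the wild-type libraries share 1 line, p-values measure only the spread between these clones and cultures.

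Cytosine methylation at CpG dinucleotides is copied to the new DNA strand by Dnmt1, which Uhrf1 guides to hemimethylated CpGs after replication. New methylation is set by Dnmt3a and Dnmt3b, and in ES cells and germ cells their activity is raised by Dnmt3l, a relative that has no catalytic activity of its own. Tet enzymes oxidise methylcytosine, and Tdg excises the oxidised bases so that base excision repair can put back an unmethylated cytosine. ES cells in serum are known for high DNA methylation and for high transcript levels of Dnmt3b, Dnmt3l, Tet1 and Tet2, and DNA methylation is one of the known layers of ERV silencing.

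The start regions of the 3 de novo genes and of Tet2 are shown because Dnmt3a, Dnmt3l and Tet2 set 1 wild-type library apart while Dnmt3b did not. Each sequence runs 5′ to 3′ on the strand of the gene, from 250 bases before to 50 bases after a RefSeq start (GRCm38.p6), with every CG in capitals. They are the first Dnmt3l start at chr10:78042037-78042336 (plus strand), the internal Dnmt3a start at chr12:3891494-3891793 (plus strand), the Dnmt3b start at chr2:153649199-153649498 (plus strand) and the Tet2 start at chr3:133544341-133544640 (minus strand). Transcription from the internal Dnmt3a start gives the shorter Dnmt3a isoform that is known as the main one of ES cells. The Dnmt3l start shown is the first of 3 by position, and which of them these cells use was not tested.
Dnmt3l: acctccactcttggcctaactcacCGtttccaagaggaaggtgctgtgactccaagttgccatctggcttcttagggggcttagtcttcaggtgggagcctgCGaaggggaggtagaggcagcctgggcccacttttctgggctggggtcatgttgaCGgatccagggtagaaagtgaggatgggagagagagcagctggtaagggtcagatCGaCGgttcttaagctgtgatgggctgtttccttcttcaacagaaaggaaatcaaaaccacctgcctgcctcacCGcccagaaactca
Dnmt3a: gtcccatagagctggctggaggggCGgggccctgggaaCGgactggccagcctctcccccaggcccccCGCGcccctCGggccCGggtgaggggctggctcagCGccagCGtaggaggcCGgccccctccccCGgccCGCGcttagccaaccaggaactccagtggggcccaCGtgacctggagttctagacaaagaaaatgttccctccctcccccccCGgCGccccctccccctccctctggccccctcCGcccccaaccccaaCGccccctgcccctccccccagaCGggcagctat
Dnmt3b: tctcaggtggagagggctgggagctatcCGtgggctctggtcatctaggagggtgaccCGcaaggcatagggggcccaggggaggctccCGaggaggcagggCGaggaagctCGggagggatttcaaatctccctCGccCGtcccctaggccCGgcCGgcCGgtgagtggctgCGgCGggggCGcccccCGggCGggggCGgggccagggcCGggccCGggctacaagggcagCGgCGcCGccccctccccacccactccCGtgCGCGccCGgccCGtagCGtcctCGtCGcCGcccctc
Tet2: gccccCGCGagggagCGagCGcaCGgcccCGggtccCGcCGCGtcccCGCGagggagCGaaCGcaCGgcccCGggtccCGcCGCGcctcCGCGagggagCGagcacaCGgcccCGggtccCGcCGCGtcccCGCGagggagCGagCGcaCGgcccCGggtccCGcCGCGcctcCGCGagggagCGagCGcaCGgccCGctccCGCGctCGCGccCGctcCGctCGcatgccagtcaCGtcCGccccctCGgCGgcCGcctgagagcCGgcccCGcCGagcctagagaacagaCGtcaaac
The letters CG, which read the same on both strands, stood 6 times in the Dnmt3l window, 18 times in the internal Dnmt3a window, 30 times in the Dnmt3b window and 57 times in the Tet2 window. Over 32851 RefSeq windows of 300 bases, 94.6% held at least 1 CG and the median was 7. Dnmt3l had 6, 4 and 3 CGs at its 3 listed starts, so all of them lay below that median. The Tet2 window held more CGs than 99.8% of them. The counts per gene do not tell starts or isoforms apart, and methylation of these windows was not measured here.

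A stretch of Tdg is shown because Tdg is the member with the fewest counts, 2 to 6 per library. The 50 bases below are bases 194 to 243 of a Tdg transcript of 2959 bases (GENCODE M21), inside its coding part, which runs from base 162 to base 1352.
Tdg: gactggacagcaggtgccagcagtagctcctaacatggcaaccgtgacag
The same 50 letters stand in the processed copy Tdg-ps at base 206 and in the copy Gm9855 at base 33. Of all 50-base words of this transcript, 65.9% occur in another gene's transcripts, 54.4% in Tdg-ps and 30.1% in Gm9855. The gene counts of STAR, the aligner of the study, leave out read pairs with several places in the genome or with several overlapping genes. Among the other members, 18.9% of the words of Uhrf1 and 11.5% of those of Dnmt3b were shared, the latter with Dnmt3c, and read pairs that fit both places are missing from their counts. Tet1 shared 0.014% and the remaining 6 members shared no word.

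Sense-strand counts came to 10740618 to 11525164 in the ko libraries and 13013286 to 14123131 in the wild-type libraries. Morc3 fell from 284 ± 16.2 CPM (counts scaled by library size, SD, n = 3) in wild type to 117 ± 33.8 CPM in ko (log2 fold change -1.28, SE 0.16, adjusted p = 8.4e-04, edgeR's quasi-likelihood test). At an adjusted p under 0.01, which is the threshold of the study, 156 of 12222 tested genes were called (1.28%), 105 higher and 51 lower in ko. None of 10 ES cell marker genes was called, and their log2 fold changes lay between -0.12 and 0.15. Of 6 fibroblast markers, Postn had no count in any library and only Thy1 passed the filter on low counts; it was called lower in ko. The summed level of these 6 was 5.30 to 5.64 CPM in ko and 8.62 to 9.59 CPM in wild type. Thy1 made up most of these sums, with 4.59 to 5.08 CPM in ko and 8.18 to 9.11 CPM in wild type. The other markers had few counts, and Col1a1 had a higher mean in ko (0.484 CPM) than in wild type (0.311 CPM). Sums over 6 endoderm markers were 1.48 to 2.12 CPM in ko and 2.47 to 3.57 CPM in wild type, and those over 6 genes of early differentiation were 19.8 to 25.0 and 15.4 to 19.8 CPM, with none called in either list. Otx2 made up most of the early differentiation sums, with 17.1 to 21.6 CPM in ko and 11.7 to 15.6 CPM in wild type. The other tested genes of that list, Sox1 and Eomes, had lower means in ko. In bulk RNA, fewer cells of a type and less RNA per cell cannot be told apart.

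Of the 10 members, 9 passed the filter on low counts and were tested. None of the 9 was called at an adjusted p under 0.01, beside 1.28% of all tested genes, and none had an adjusted p under 0.05, beside 2.71%. At an unadjusted p under 0.05 there were 2 of the 9 members, Dnmt3b and Uhrf2, beside 1746 of all 12222 tested genes. DESeq2 called 0 members. The 9 log2 fold changes of ko over wild type lay between -0.22 and 0.30 with a median of -0.02, and 4 of the 9 were positive, beside a median of -0.00010 over all tested genes. The ko and wild-type libraries did not overlap for 2 members, Dnmt3b and Uhrf2, beside 19.9% of all tested genes.

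**Figure D1:**
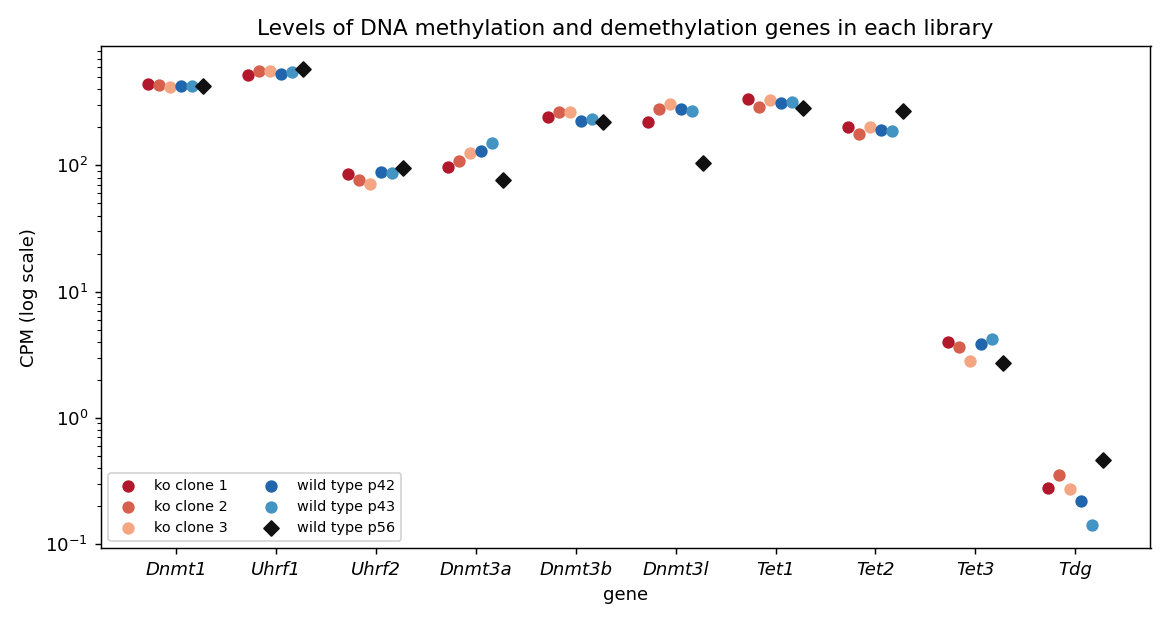
CPM on a log axis of the 10 members in each library, with 1 point per library; circles stand for the 3 ko clones and for wild-type p42 and p43, and diamonds for wild-type p56. The points of Dnmt1 lie almost on a line, whereas wild-type p56 lies far below the other libraries for Dnmt3l and above them for Tet2, and Tdg stays under 1 CPM throughout.

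Dnmt1, the maintenance methyltransferase (chromosome 9, 20907206 to 20959888, GRCm38, minus strand), measured 441, 434 and 422 CPM in ko clones 1, 2 and 3, and wild-type p42, p43 and p56 had 430, 425 and 424 CPM. The groups overlapped, and the highest library exceeded the lowest by 1.05 times. The mean was 432 ± 9.76 CPM in ko and 426 ± 2.73 CPM in wild type (SD, n = 3 each). The log2 fold change was 0.02 (SE 0.05, adjusted p = 0.918), and its 95% interval covered folds from 0.934 to 1.10. This was the narrowest interval among the 9 tested members. A decrease of Dnmt1 transcripts to under 0.934 of the wild-type level was thus outside the interval of these 6 libraries.

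Uhrf1, which brings Dnmt1 to replicated DNA (chromosome 17, 56303337 to 56323486, plus strand), measured 517, 562 and 563 CPM in the ko clones and 531, 549 and 583 CPM in wild type. The lowest library was ko clone 1 and the highest was p56, and the groups overlapped. The log2 fold change was -0.02 (SE 0.06, adjusted p = 0.934). Uhrf2 is a close relative of Uhrf1 that binds hydroxymethylated DNA and is not known to replace Uhrf1 in maintenance (chromosome 19, 30030430 to 30093726, plus strand). It measured 85.4, 76.5 and 71.1 CPM in the ko clones and 89.1, 87.0 and 95.2 CPM in wild type. Every ko clone lay below every wild-type library, although clone 1 came close to p43. The mean was 77.7 ± 7.18 CPM in ko and 90.4 ± 4.27 CPM in wild type (SD, n = 3 each). This gave a log2 fold change of -0.22 (SE 0.08, 95% interval -0.39 to -0.05), and the adjusted p of 0.207 did not pass the threshold. Over the alternatives it lay between -0.29 and -0.16, with adjusted p-values of 0.0952 to 0.626.

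Dnmt3b, a de novo methyltransferase (chromosome 2, 153649411 to 153687730, plus strand), measured 242, 264 and 266 CPM in ko clones 1, 2 and 3, and p42, p43 and p56 had 224, 231 and 221 CPM. Every ko clone lay above every wild-type library. The mean was 257 ± 13.1 CPM in ko and 226 ± 5.24 CPM in wild type (SD, n = 3 each). Dnmt3b thus had a log2 fold change of 0.19 (SE 0.06, 95% interval 0.06 to 0.32). Its unadjusted p of 0.00902 was the smallest of the members, and the adjusted p of 0.157 did not pass the threshold. Over the alternatives the log2 fold change stayed between 0.17 and 0.24, with adjusted p-values of 0.0803 to 0.480. The genes whose log2 CPM, centred on its mean, followed that of Dnmt3b most closely over the 6 libraries were Kat6a, Exosc4 and Ifrd2. Their root mean square distances were 0.0183, 0.0200 and 0.0203, beside a median of 0.169 over all tested genes. They were picked as the smallest distances, so a place below that median follows from the choice.

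Dnmt3a, the other de novo methyltransferase (chromosome 12, 3801559 to 3914443, plus strand), measured 97.7, 108 and 126 CPM in the ko clones, 129 and 151 CPM in wild-type p42 and p43, and 76.2 CPM in p56. The 3 clones lay below p42 and p43 and above p56, so that the wild-type libraries enclosed the ko libraries. Over all 6 libraries, Dnmt3a had a log2 fold change of -0.11 (SE 0.19, adjusted p = 0.864). Dnmt3l, the cofactor of both methyltransferases (chromosome 10, 78042287 to 78063622, plus strand), measured 222, 281 and 305 CPM in the ko clones, 279 and 271 CPM in p42 and p43, and 105 CPM in p56. Here p42 and p43 lay within the range of the clones and p56 lay below all other libraries. The mean was 270 ± 42.8 CPM in ko and 218 ± 98.3 CPM in wild type (SD, n = 3 each). The log2 fold change of 0.30 was the largest of the members in size, with an SE of 0.27 and an adjusted p of 0.695. Its 95% interval covered folds from 0.821 to 1.86.

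Tet1, the founding member of the Tet dioxygenases (chromosome 10, 62804570 to 62887469, minus strand), measured 337, 291 and 333 CPM in the ko clones and 313, 316 and 286 CPM in wild type. The groups overlapped, with p56 lowest and ko clone 1 highest. Its log2 fold change was 0.07 (SE 0.07, adjusted p = 0.734). Tet2, which unlike Tet1 and Tet3 has lost its own CXXC domain (chromosome 3, 133463677 to 133545136, minus strand), measured 203, 178 and 201 CPM in the ko clones, 191 and 188 CPM in p42 and p43, and 268 CPM in p56. The clones enclosed p42 and p43, whereas p56 lay above all other libraries. For Tet2 this was -0.15 on the log2 scale (SE 0.12, adjusted p = 0.648). Tet3, known for oxidation of the paternal genome in the zygote (chromosome 6, 83362373 to 83457208, minus strand), had 43, 41 and 31 counts in the ko clones and 53, 60 and 35 counts in wild type, or 2.70 to 4.20 CPM over the 6 libraries. The groups overlapped, and the 95% interval of the log2 fold change (-0.05, adjusted p = 0.951) ran from -0.54 to 0.44, so that smaller changes were not detectable at this depth.

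Tdg, the glycosylase (chromosome 10, 82629814 to 82650799, plus strand), had 3, 4 and 3 counts in the ko clones and 3, 2 and 6 counts in wild type. It did not pass the filter and was not tested. Tdg overlaps Glt8d2 on the opposite strand, which had 0 to 5 counts, and Gm9855 had no count in any library. These counts are not read as the level of Tdg, since most of its sequence, such as the stretch printed above, is shared with copies elsewhere in the genome; the part of this in the low count was not tested. Dnmt3l overlaps Aire on the opposite strand, and Aire had 33 to 74 counts. The opposite-strand counts of the members themselves were 0 to 10 per library.

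Wild-type p56 stood apart from the other libraries over all genes and in some of the members. Over all genes, the chi-square per gene between 2 libraries was 9.73 to 12.9 for pairs with p56 and 2.02 to 8.40 for all other pairs. The most alike pair was p42 and p43, at 2.02, beside 2.54 to 4.51 between the ko clones. Relative to the mean of p42 and p43, p56 had 0.381 times the Dnmt3l level, 0.544 times the Dnmt3a level, 0.672 times the Tet3 level and 1.41 times the Tet2 level. Dnmt1 was at 0.993 times, and the remaining tested members were between 0.909 and 1.08 times. Dnmt3a and Dnmt3l were the 2 of 9 tested members that differed by at least 1.5-fold, beside 9.34% of all tested genes. With 1 library there is no test of these differences. Since p56 is 1 of only 3 wild-type libraries, the fits of the 9 tested members are also given without it. In every fit without p56, the wild-type spread came from p42 and p43 alone, and calls over all genes rose from 156 to 385. Small p-values from such fits, for members and related genes, carry that limit.

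Against p42 and p43 alone, none of the members was called at an adjusted p under 0.01, beside 3.13% of 12315 tested genes. At an adjusted p under 0.05 there was 1 member, Dnmt3a, beside 5.81% of all tested genes. The log2 fold change of Dnmt3a then was -0.34 (SE 0.09, 95% interval -0.52 to -0.16, adjusted p = 0.0179, edgeR). Dnmt3b and Uhrf2 kept 0.18 (adjusted p = 0.109) and -0.18 (adjusted p = 0.179). Dnmt3l moved to -0.03 with an SE of 0.09, and Tet2 to 0.04 with an SE of 0.07. The direction of Dnmt3l and Tet2 between the groups was therefore set by p56.

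**Figure D2:**
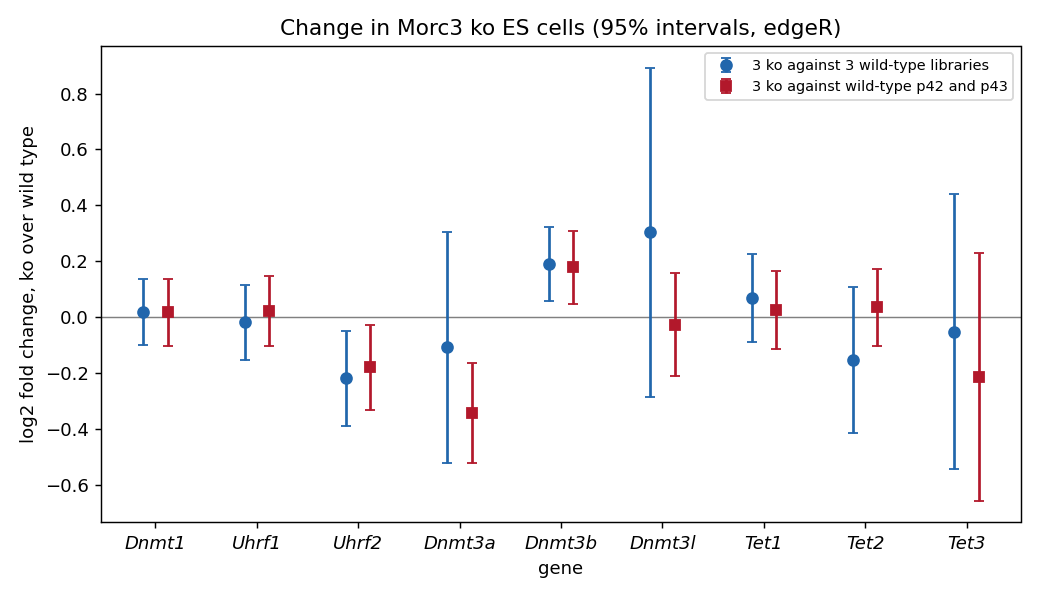
Log2 fold change of ko over wild type for the 9 tested members with 95% intervals from edgeR; circles use all 6 libraries and squares leave out wild-type p56. The intervals of Dnmt3a, Dnmt3l and Tet2 become narrower without p56, and that of Dnmt3a no longer includes 0.

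Levels of different genes were compared as CPM per kb of exon. Uhrf1 ranked first with a mean of 150 over the 6 libraries, followed by Dnmt3l (91.3), Dnmt1 (68.1), Dnmt3b (55.8), Uhrf2 (23.8), Tet2 (22.2), Tet1 (21.7), Dnmt3a (11.6) and Tet3 (0.300). Among 11677 genes ranked by this level, Uhrf1 stood at percentile 95.8, Dnmt3l at 92.9, Dnmt1 at 90.6, Dnmt3b at 88.5, Dnmt3a at 59.3 and Tet3 at 3.44. Neighbours whose ranges over the libraries overlapped were Dnmt3l and Dnmt1, Uhrf2 and Tet2, and Tet2 and Tet1. Dnmt3l exceeded Dnmt1 in 5 of 6 libraries, the exception being p56, and Tet2 exceeded Tet1 in 1 of 6, which was p56 again. Uhrf2 exceeded Tet2 in 4 of 6 libraries. For neighbours whose ranges did not overlap, the same order in 6 of 6 libraries follows from that. Lengths were not reduced for the words that Uhrf1 (18.9%) and Dnmt3b (11.5%) share with other genes. Whether the order of Dnmt1 and Dnmt3b depends on this was not tested. The order of the means was the same per kb of the longest coding transcript, a length chosen after the data were seen.

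By this measure, the 3 de novo genes together reached 149, 177 and 189 CPM per kb in the ko clones, 169 and 170 in p42 and p43, and 98.0 in p56. Dnmt3l made up 55.8% to 60.7% of this sum in the ko clones and 61.7% and 59.6% in p42 and p43, but 40.0% in p56. Dnmt3b took 32.6% to 37.6% in the clones, 30.6% and 31.4% in p42 and p43, and 52.1% in p56. These shares depend on the length used. Per kb of exon, p56 had 39.2 CPM for Dnmt3l and 51.1 CPM for Dnmt3b. Per kb of the longest coding transcript it had 57.5 and 51.2 CPM, so the order of these genes in p56 turned with the length. Tet2 made up 48.1% to 48.5% of the summed Tet level in the ko clones, 48.3% and 47.8% in p42 and p43, and 59.1% in p56, whereas Tet3 stayed under 1% in every library. The makeup of the Tet transcripts thus differed between p56 and the other 5 libraries and hardly among those 5.

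**Figure D3:**
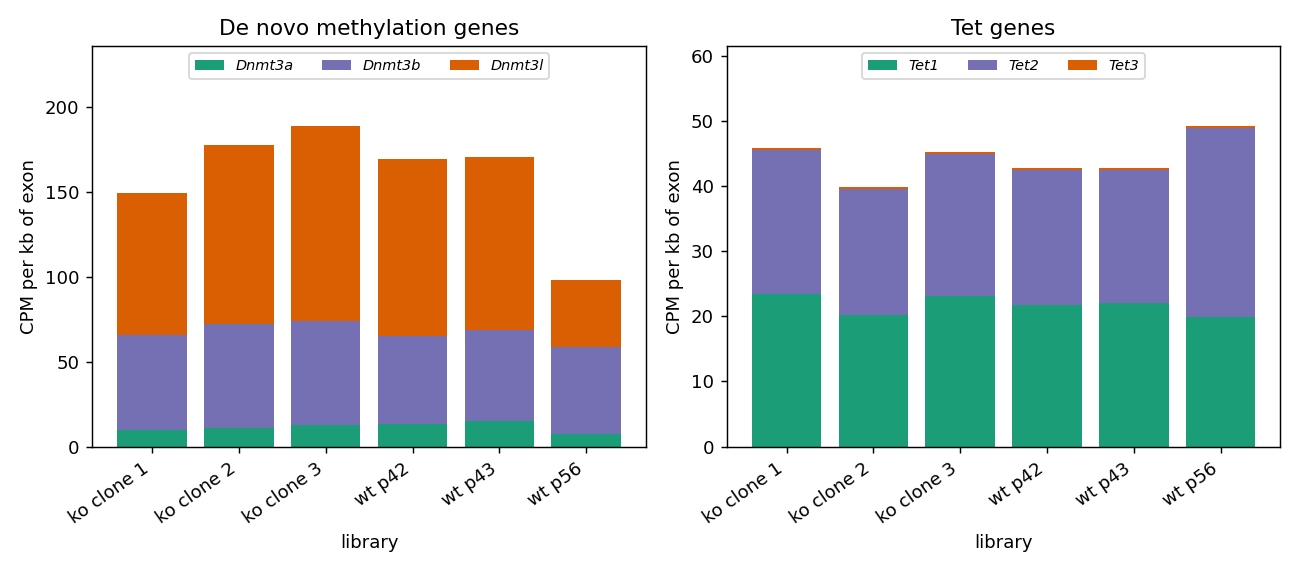
Stacked bars of CPM per kb of exon in each library, for the de novo genes Dnmt3a, Dnmt3b and Dnmt3l (left) and for Tet1, Tet2 and Tet3 (right). The left bar of wild-type p56 reaches 98.0 because its Dnmt3l part is small, and its right bar is the tallest because its Tet2 part is large.

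Ratios of CPM within a library do not depend on scaling between libraries, and 6 of them were tested by exact permutation of the library labels (two-sided), for which p = 0.1 is the smallest value that 3 against 3 libraries allow. The Dnmt3a to Dnmt3b ratio was 0.403, 0.410 and 0.472 in the ko clones, 0.578 and 0.652 in p42 and p43, and 0.345 in p56 (exact permutation p = 0.4, adjusted p = 0.96). The clones lay between p56 and the other wild-type libraries. The log2 difference of this ratio was -0.25 over all libraries, -0.52 without p56 (exact permutation p = 0.1, the smallest this design allows), -0.15 without p42 and -0.063 without p43. The Tet2 to Tet1 ratio was 0.601, 0.612 and 0.604 in the ko clones, 0.608 and 0.595 in p42 and p43, and 0.935 in p56 (exact permutation p = 0.8, adjusted p = 0.96). The 5 libraries other than p56 thus lay between 0.595 and 0.612. The Uhrf2 to Uhrf1 ratio was 0.165, 0.136 and 0.126 in the ko clones and 0.168, 0.158 and 0.163 in wild type, so that clone 1 lay among the wild-type libraries (exact permutation p = 0.3, adjusted p = 0.96). The ratios Dnmt3l to Dnmt3b, Dnmt1 to Uhrf1 and Tet3 to Tet1 overlapped between the groups too, with exact permutation p-values of 0.6 to 1.0.

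Genes that work with the members were taken from 6 lists of 87 genes in all, of which 86 had a row under the listed symbol, 79 were tested and 3 were called, all lower in ko. Among partners of the methyltransferases, 0 of 19 tested genes were called and the median log2 fold change was 0.04. Atrx, a chromatin remodeller that deposits histone H3.3 with Daxx, came nearest, with 504, 529 and 563 CPM in the ko clones and 409, 407 and 474 CPM in wild type. The ko clones lay above all wild-type libraries. Its log2 fold change was 0.31 (SE 0.07, adjusted p = 0.0468), and the adjusted p was 0.00786 with DESeq2 and 3.2e-04 by edgeR without p56. Trim28, the corepressor of KRAB zinc finger proteins, had 0.12 (adjusted p = 0.435), and Pcna, the sliding clamp of replication, 0.01 (adjusted p = 0.979).

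Among methyl-CpG readers, 0 of 9 tested genes were called, with a median of 0.07. Among genes of base excision repair, cytidine deaminases and the Gadd45 family, listed together, 0 of 16 tested genes were called, with a median of -0.08 and 4 positive values. Gadd45a, a stress-induced gene linked to active demethylation, had -0.38 (SE 0.11, adjusted p = 0.126), with 41.4, 39.4 and 38.7 CPM in the ko clones and 55.3, 58.7 and 41.7 CPM in p42, p43 and p56. Without p56, and so against the closely alike p42 and p43 alone, Gadd45a was called, at -0.52 with an adjusted p of 9.9e-05 by edgeR. Among Tet partners, 0 of 9 tested genes were called, with a median of 0.01, and Cxxc5, a CXXC protein that binds Tet2, had -0.32 (adjusted p = 0.0605). Among genes that supply methyl groups, 0 of 15 tested genes were called, with a median of 0.04, and Gldc of the glycine cleavage system had 0.36 (adjusted p = 0.176). Gldc was lowest in p56, with 257 CPM beside 380 and 375 CPM in p42 and p43, and had 0.20 without p56 (adjusted p = 0.0490).

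The list of genes whose promoters are known to be silenced by DNA methylation held the 3 called genes, with 12 tested, 9 of them negative and a median of -0.53. They were Rhox5, Rhox6 and Rhox9, homeobox genes of the Rhox cluster on the X chromosome. These 3 neighbours from the same cluster also had the most negative values of the list. The list was chosen with earlier results of these data known, so its counts and median are no test of such genes as a set. Rhox5 measured 8.32, 7.33 and 5.81 CPM in the ko clones and 39.1, 29.0 and 27.9 CPM in wild type, without overlap, and its log2 fold change was -2.16 (SE 0.17, adjusted p = 1.6e-05). Rhox6 had -2.0 (SE 0.24, adjusted p = 5.6e-04), and Rhox9 had -1.78 (SE 0.30, adjusted p = 0.0070). Rhox6 and Rhox9 belong to a family of similar genes, and how far they share sequence was not tested, so that their counts are given with reserve. They reached at most 6.59 and 3.63 CPM. Without p56 the 3 genes had -2.25, -1.95 and -1.61 and stayed called. Ddx4, a germ cell RNA helicase, had -0.71 (SE 0.14, adjusted p = 0.0182), with 19.2 to 20.8 CPM in ko and 27.9 to 41.5 CPM in wild type. Ddx4 was called lower by DESeq2 (adjusted p = 3.6e-04) and by edgeR with no filter (adjusted p = 0.0010), without p42 (adjusted p = 0.0098) and without p56 (log2 fold change -0.51, adjusted p = 0.0012). Stk31, another germ cell gene of the list, pointed the other way at 0.48 (adjusted p = 0.315), with 18.8, 25.1 and 24.8 CPM in the ko clones and 12.7, 13.3 and 23.5 CPM in p42, p43 and p56. Without p56 it was called higher, at 0.82 with an adjusted p of 1.7e-04; Stk31 was named after its values were seen. Thy1, the fibroblast marker named above, was lower in ko too, at -0.86 (adjusted p = 0.0064), and its part in these differences was not tested.

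**Figure D4:**
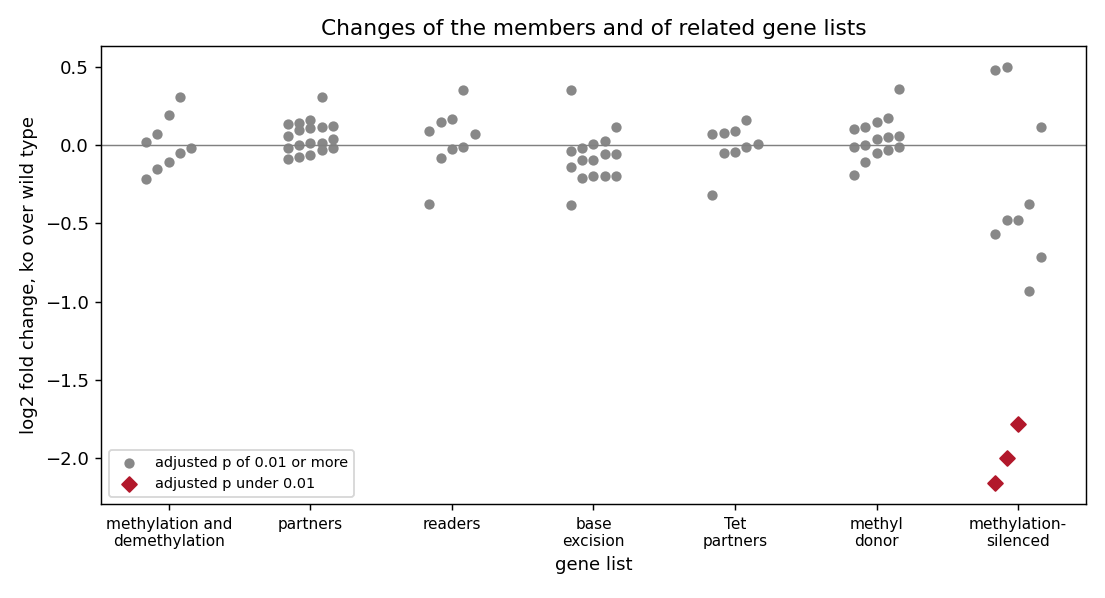
Log2 fold change of ko over wild type for the tested members and for the tested genes of 6 related lists, with 1 point per gene and red diamonds for an adjusted p under 0.01 by edgeR. The members lie between -0.22 and 0.30, and the 3 called genes are Rhox5, Rhox6 and Rhox9 in the list of genes silenced by methylation.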

How the data were processed

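Per the labels and the methods of the study, total RNA was depleted of ribosomal RNA, strand-specific libraries gave read pairs of 50 bp per end, and the authors aligned them to mm10 with STAR. The gene annotation is not given in the sources used here. The deposited files hold raw counts per gene for each library, not pooled and not normalized; the sense-strand column was used, and the first 4 lines, which name no gene, were left out. Sense totals were 10740618 to 14123131 counts per library. Samples were grouped by the genotype in their titles. From the counts, edgeR 4.0.16 (R 4.3.3) gave TMM-scaled CPM, fold changes (prior count 0.125) and two-sided quasi-likelihood tests after filterByExpr (minimum count 10, minimum total 15), with Benjamini-Hochberg adjustment over 12222 genes and calls at an adjusted p under 0.01. The test was checked on simulated data. Alternatives were DESeq2 1.42.0, limma-voom (limma 3.58.1), a robust fit, RLE factors, library size only, no filter, a CPM filter, counts that ignore strand, a threshold of 0.05 and leaving out each library. Lengths came from GENCODE M21, positions and start windows from RefSeq; of the gene rows, 22542 matched a current symbol, 1352 a former one and 160 none. All 10 members were named; genes of the related lists were named from among those with the smallest p or the highest level per kb in their list, with every called gene. The members and the lists were chosen with earlier results of these data known. Transcript counts do not measure protein, enzyme activity or DNA methylation.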

Additional observations from a re-analysis of the deposited data

How the results depend on the processing

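The members were called in none of the alternatives, and among 126 values of the 9 tested members 117 kept their direction and 9 turned it, none past the threshold. With library size only, the log2 fold change of Dnmt1 was -0.0031. Leaving out 1 library at a time gave -0.045 to 0.026 for Uhrf1, -0.34 to 0.10 for Dnmt3a, -0.027 to 0.52 for Dnmt3l, -0.24 to 0.035 for Tet2 and -0.21 to 0.081 for Tet3. The log2 differences of ratios then ranged from -0.52 to -0.063 for Dnmt3a to Dnmt3b, -0.22 to 0.48 for Dnmt3l to Dnmt3b, -0.018 to 0.076 for Dnmt1 to Uhrf1, -0.32 to 0.0097 for Tet2 to Tet1 and -0.25 to 0.069 for Tet3 to Tet1. Dnmt3a was positive only without p43, and Dnmt3l was negative and Tet2 positive only without p56. Over all genes, DESeq2 called 254 (163 higher, 91 lower), a fit with no filter 286 (170 and 116), a threshold of 0.05 gave 331 (193 and 138), and leaving out 1 library gave 72 to 385, the highest without p56. Of the related genes, DESeq2 called 5, a threshold of 0.05 gave 5, and leaving out 1 library gave 2 to 7, the highest without p56 (2 higher, 5 lower). Rhox9 lost its call by limma-voom and when any 1 of the ko clones, p42 or p43 was left out, with adjusted p-values up to 0.0696. The causes were not tested. The low counts of Tet3 and Tdg limit what can be seen of them at this depth. No paired analysis was possible because ko and wild-type titles share no replicate numbers.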
